A study of Mus musculus with 38 samples.

Results

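Genes of the endoplasmic reticulum (ER) that fold, process and dispose of secreted proteins were followed through all cell types sorted from bones of healthy and myeloma-bearing mice. The panel of 40 genes was taken by symbol, from known roles in secretion and in the unfolded protein response, and its rule used no measured value, although earlier results of these data were known when it was chosen. Of these, 39 were among the 13260 genes of the expression table, and Derl3 is not analysed here. RNA-Seq was performed on 38 libraries of 100 sorted cells. C57Bl/KaLwRijHsd mice, aged 8 to 10 weeks, received PBS vehicle (healthy) or 5TGM1-GFP cells (myeloma-bearing) by intravenous injection and were culled on day 23. Endothelial cells (CD31+) and stromal progenitors (Sca1+ALCAM-) of the bone lining had 5 libraries per host group, and osteoprogenitors (ALCAM+Sca1-) had 4. GFP+ myeloma cells had 5 libraries from the bone lining and 5 from central marrow. All myeloma cells descend from the single transplanted line 5TGM1, a mouse myeloma line that carries GFP. The same letter in a library code was taken as its replicate name, and no label says that a letter is an animal, so p-values measure the spread between these libraries.

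Proteins to be secreted enter the ER through the Sec61 channel, aided by the translocon-associated TRAP complex (Ssr genes), and lose their signal peptide to the signal peptidase complex. Chaperones such as BiP (Hspa5) and disulfide isomerases fold them, and ER-associated degradation (ERAD) returns failed products to the cytosol. When unfolded protein accumulates, the sensors IRE1 (Ern1), ATF6 and PERK raise folding capacity, in part through XBP1, while prolonged PERK signalling induces CHOP (Ddit3) and Trib3. Plasma cells, the normal counterparts of myeloma cells, are known for antibody secretion and for their need of XBP1, and osteoblast lineage cells secrete collagen.

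Libraries held 9735031 to 34883291 reads on genes. Expression is given as RPKM, the read number scaled to the length of the gene and to the depth of the library. The sorted cells carried their own defining markers. Summed RPKM of 4 myeloma markers, among them Igj and Ptprc, was 3152.2 to 9835.3 in the 10 myeloma libraries and 0 to 10.7 in the 28 niche libraries. Summed RPKM of 9 osteoprogenitor markers was 8096.5 to 64333.5 in osteoprogenitors and 25.1 to 97.3 in myeloma cells. Endothelial markers summed to 613.4 or more in endothelial cells and to 26 or less elsewhere. Summed stromal progenitor markers, which include Ly6a (Sca1), were 957.9 to 3036.4 in stromal progenitors but higher, 2252.6 to 8771.4, in endothelial cells. Between healthy osteoprogenitors and stromal progenitors, the markers Bglap, Dkk1, Cdh2, Bmp7, Col1a1 and Ly6a passed the limma test described below. Alcam, Sp7, Runx2, Alpl, Pdgfra, Pdgfrb, Prrx1 and Lepr did not pass it. The summed RPKM of 8 macrophage and osteoclast markers was 170.5 to 903.0 in bone-lining myeloma cells and 126.9 to 475.4 in osteoprogenitors of the same hosts. In these myeloma cells Cd68 was at 168.3 to 895.4, and each of the other 7 had a median of 0.536 or less, with up to 67.9 in a single library (Lyz2). In the osteoprogenitors Cd68 was at 2.31 to 119.7 and Ctsk at 120.2 to 234.9. Neutrophil markers were at most 161.8 outside stromal progenitors but reached 7273.1 in healthy replicate L and 8118.8 in myeloma-bearing replicate E of that cell type. The part of these cells in the results was not tested. The number of genes above 1 RPKM was lowest in endothelial cells, from 4501 to 7805, against 7755 to 8474 in myeloma cells.

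The 39 genes together made up the largest share of the measured expression in myeloma cells. Their summed RPKM was 2.45% to 2.79% of the total in the 10 myeloma libraries. Osteoprogenitors followed, with 1.16% to 1.36% over both hosts, then stromal progenitors with 0.765% to 1.06%, and endothelial cells with 0.494% to 0.914%. No myeloma library overlapped with any niche library, and no osteoprogenitor library overlapped with the stromal or endothelial libraries. A single gene, Sec11c, contributed much of the myeloma sum, but without it the share was still 1.83% to 2.22% in bone-lining myeloma cells and 1.1% to 1.25% in osteoprogenitors of the same hosts. In summed RPKM the members reached 10854.5 to 15064.9 in bone-lining myeloma cells and 6810.9 to 9429.7 in myeloma-bearing osteoprogenitors. Without Sec11c these sums overlapped, at 8587.5 to 10852.4 and 6563.0 to 8758.7. The total RPKM of all genes, by which the shares are divided, was 395859.5 to 593372.0 in the former and 587875.6 to 737509.5 in the latter. The antibody genes Ighg2b, Igkc and Ighm were not in the expression table, so the myeloma totals leave them out. Matrix genes such as Col1a1 and Sparc were in it and count in the osteoprogenitor totals. The part of this in the shares was not tested. The libraries are bulk samples, so RNA per cell and the number of expressing cells cannot be told apart.

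The group with the highest mean differed among the genes. Bone-lining myeloma cells led for 18 of the 39 members and central marrow myeloma cells for 4. Healthy osteoprogenitors led for 6, namely Hspa5, P4hb, Dnajb9, Dnajc3, Herpud1 and Ddit3, and myeloma-bearing osteoprogenitors for 3. Stromal progenitors led for 4 in healthy and 3 in myeloma-bearing mice, and healthy endothelial cells for 1. Among myeloma-bearing osteoprogenitors the most abundant member was Spcs1, a signal peptidase subunit, with a mean of 863.8 RPKM. In bone-lining myeloma cells it was Sec11c, a catalytic signal peptidase subunit, at 3152.9 RPKM. The least abundant members were the regulators Ern1, Trib3 and the chaperone Hyou1. Ern1 was listed at 0 in all 10 stromal libraries.

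**Figure D1:**
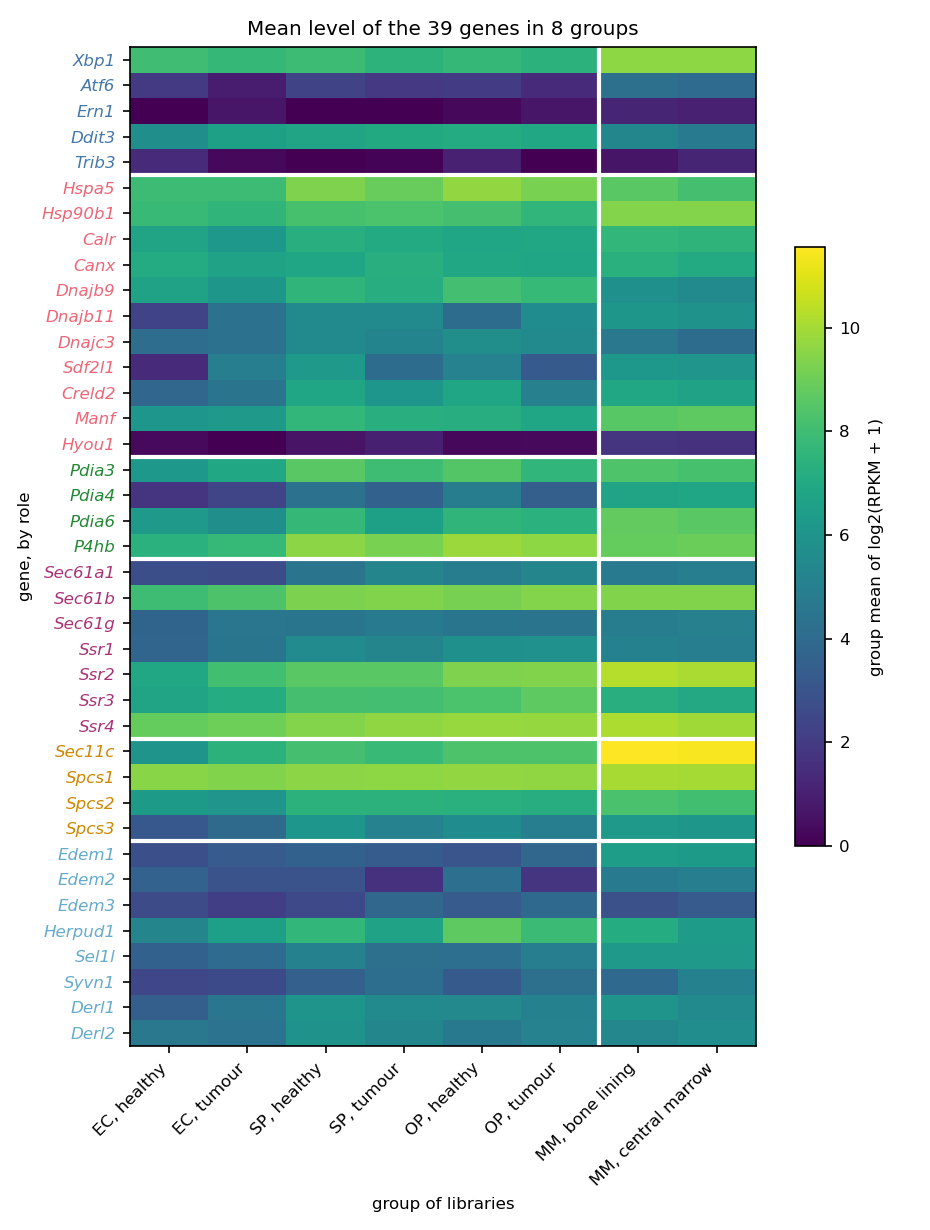
Mean log2(RPKM + 1) of the 39 measured genes (vertical, ordered by role) in the 8 groups (horizontal), as a colour. Groups are endothelial cells (EC), stromal progenitors (SP), osteoprogenitors (OP) and myeloma cells (MM), healthy or myeloma-bearing (tumour), with 4 libraries for OP and 5 for the others. Sec11c and Xbp1 are brightest in the 2 myeloma columns, and Hspa5 in healthy OP.

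To compare secretory cells of different kinds within the same hosts, bone-lining myeloma cells (n = 5) were set against osteoprogenitors of myeloma-bearing mice (n = 4). Of 37 members tested, 13 (35.1%) were higher and 3 (8.11%) lower in myeloma cells, by limma on log2(RPKM + 1) at an adjusted p below 0.1 and a log2 fold change beyond 1. Over all 9316 genes tested, 24.5% were higher and 18.4% lower by the same rule. The median log2 fold change was 0.54 over the members and 0.39 over all genes. The members ranged from a fall of Dnajb9 (log2 fold change -1.98) to a rise of Pdia4 (3.26). All myeloma libraries lay above all osteoprogenitor libraries for 9 of the 39 measured members, including the untested Trib3, and below them for 2. The same count was not made over all genes. Scaled to equal sums of RPKM, the median of all genes moved to 0.70, and Ssr2 (1.26), Derl1 (1.28) and Calr (1.18) passed as well. Hyou1 and Trib3 did not pass the expression filter, more than 1 RPKM in at least 4 libraries.

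**Figure D2:**
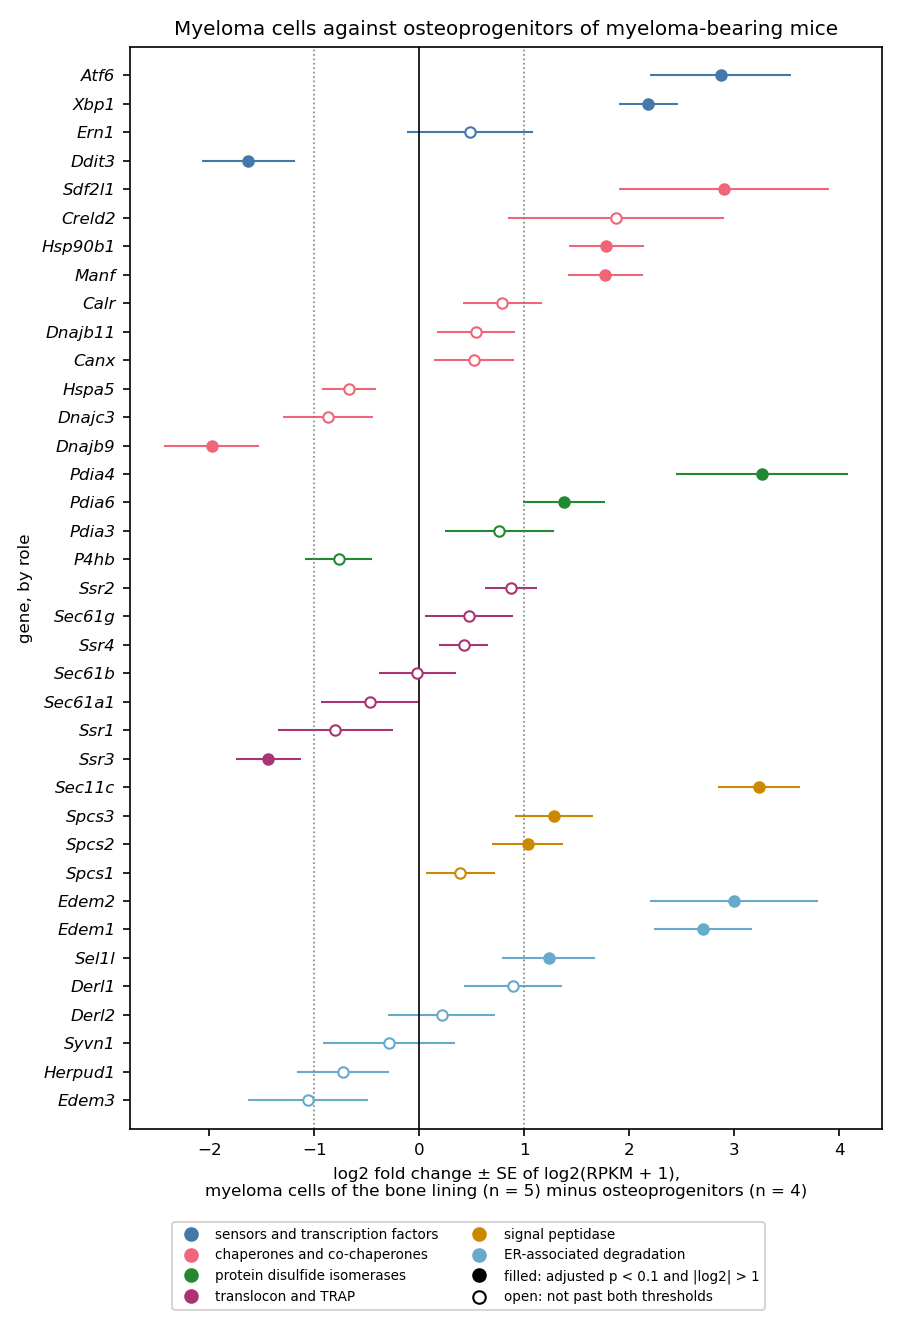
Log2 fold change, bone-lining myeloma cells minus osteoprogenitors of myeloma-bearing mice, for the 37 members tested, grouped by role. Points are estimates, bars are 1 standard error, and filled points passed the test (13 higher, 3 lower). Signal peptidase genes lie to the right of 0, and translocon and TRAP genes lie on both sides.

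Among the sensors and transcription factors, 2 of 4 tested rose and 1 fell. Xbp1 (chr11:5520641-5525993, GRCm38), the transcription factor needed for plasma cell secretion, was at 631.8, 834.4, 1059.1, 590.8 and 880.9 RPKM in the 5 myeloma libraries (799.4 ± 191.7, SD). In osteoprogenitors it was at 158.7, 161.6, 252.1 and 134.2 (176.7 ± 51.8). The groups did not overlap, and Xbp1 was 4.53-fold higher in myeloma cells (log2 fold change 2.18 ± 0.28, SE; adjusted p = 6.7e-05). Atf6 (chr1:170704457-170868585), an ER-membrane sensor released by cleavage, was at 31.8, 6.84, 16.9, 23.7 and 21.3 RPKM in myeloma cells. Its osteoprogenitor values were 0.687, 0.889, 0.539 and 8.41. The only overlap came from osteoprogenitor replicate J, which exceeded the lowest myeloma library, and Atf6 was higher by a log2 fold change of 2.87 ± 0.67 (adjusted p = 0.004809), or 3.49 without that library.

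Ddit3 (chr10:127290793-127296291), which encodes the stress factor CHOP, went the other way. Its RPKM was 37.5, 32.5, 31.4, 32.9 and 66.7 in myeloma cells and 86.4, 66.5, 196.5 and 191.2 in osteoprogenitors. Only the highest myeloma library, replicate J, reached the lowest osteoprogenitor library. The log2 fold change was -1.63 ± 0.44 (adjusted p = 0.01182), but with all 38 libraries in 1 fit, which shares the spread over all cell types, the same difference had an adjusted p of 0.169. Xbp1 RPKM was 13.2 to 33.8 times that of Ddit3 within the bone-lining myeloma libraries and 0.702 to 2.43 times within those of the osteoprogenitors. Trib3 (chr2:152337425-152344060), a pseudokinase induced downstream of CHOP, had no read in any of the 4 osteoprogenitor libraries. It was at 0.219, 0.829, 0.043, 0.0765 and 2.66 RPKM in myeloma cells, levels too low to be tested. Ern1, the kinase and nuclease that activates XBP1, was at 1.91 ± 2.51 RPKM in myeloma cells and 0.852 ± 1.08 in osteoprogenitors (log2 fold change 0.48 ± 0.60, adjusted p = 0.5724).

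The 10 chaperones and co-chaperones tested were divided, with 3 higher and 1 lower in myeloma cells. Hspa5 (chr2:34772090-34776529), the main ER chaperone BiP, was at 488.1, 266.3, 437.1, 388.7 and 368.9 RPKM in myeloma cells and at 565.2, 478.2, 695.1 and 727.7 in osteoprogenitors. The groups overlapped in 1 myeloma library. With a log2 fold change of -0.67 ± 0.26 (adjusted p = 0.0603), Hspa5 did not reach the fold threshold. Hsp90b1 (chr10:86690841-86705444), the ER member of the HSP90 family known as GRP94, was at 820.4, 743.2, 737.9, 743.7 and 421.5 RPKM in myeloma cells. In osteoprogenitors it was at 91, 235.0, 273.6 and 255.3. These ranges were apart, and Hsp90b1 was 3.42-fold higher in myeloma cells (log2 fold change 1.78 ± 0.36, adjusted p = 0.001926). Within each library, Hsp90b1 RPKM divided by Hspa5 RPKM was above 1 in every myeloma library, from 1.14 to 2.79 on the bone lining and from 1.8 to 3.19 in the central marrow. The ratio was 0.161 to 0.491 in osteoprogenitors of the same hosts and 0.259 to 0.435 in healthy ones. Endothelial cells of myeloma-bearing mice reached from 0.416 to 1.74 and overlapped with the myeloma cells.

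The DnaJ proteins that guide BiP did not follow 1 pattern. Dnajb9 (chr12:44205897-44210068), a co-chaperone that restrains IRE1, was at 18.2, 69.7, 78.9, 53.8 and 83.3 RPKM in myeloma cells. All 4 osteoprogenitor libraries were above these, at 179.7, 206.3, 239.1 and 245.9. Dnajb9 was thus 3.95-fold lower in myeloma cells (log2 fold change -1.98 ± 0.45, adjusted p = 0.004039). Dnajb11 (0.54 ± 0.37) and Dnajc3 (-0.87 ± 0.43) did not pass. Sdf2l1 (chr16:17130138-17132383), an ER protein that works with Dnajb11, was at 35.2, 108.2, 124.1, 45.3 and 83.3 RPKM in myeloma cells. In osteoprogenitors it was at 29.9, 3.19, 0.113 and 58.8, so that the groups overlapped and the osteoprogenitors spread widely. Sdf2l1 was higher in myeloma cells (log2 fold change 2.90 ± 1.00, adjusted p = 0.03826). The estimate was 1.86 without osteoprogenitor replicate I, the library at 0.113 RPKM, which still passed, and 3.78 without replicate J. Manf, a secreted ER stress protein, was also higher (1.77 ± 0.36, adjusted p = 0.001904). The lectin chaperones Calr (0.79 ± 0.38) and Canx (0.52 ± 0.38), and Creld2 (1.87 ± 1.03), did not pass.

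The promoters of these chaperones are shown because the ER stress response element (ERSE), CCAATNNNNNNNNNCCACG, is the known binding site of ATF6 and XBP1. RefSeq promoter windows, from 250 bases before to 50 bases after the gene start (GRCm38.p6), were matched for 32 of the 40 named genes. Both strands were searched. ERSE was found in 9 of the 32 (28.1%), 8 of them measured and the other Derl3, against 16 of 9782 genes (0.164%), a number that includes the same 9. The related ERSE-II, ATTGGNCCACG, which shares CCACG with ERSE, was in Herpud1 and Dnajb11 (6.25% against 0.0818%). The XBP1 element TGACGTGG was in none of the 32 and in 1.08% of genes. TGATGNAA, a pattern bound by ATF4 with CEBP partners, was in Trib3 and Herpud1 (6.25% against 2.83%). These are matches of letters, not shown sites. The panel was picked for known roles in secretion and the unfolded protein response, so the shares only describe it and were not tested. The ERSE matches are given on the strand that reads CCAAT, with the fixed letters in capitals.
Hspa5 (chr2:34772025-34772043): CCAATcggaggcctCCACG
Calr (chr8:84847075-84847093): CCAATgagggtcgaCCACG
Hsp90b1 (chr10:86705638-86705656): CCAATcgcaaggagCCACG
Hsp90b1 (chr10:86705533-86705551): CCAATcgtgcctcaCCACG
Canx (chr11:50325800-50325818): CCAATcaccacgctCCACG
Pdia6 (chr12:17266491-17266509): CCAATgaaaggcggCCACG
Dnajc3 (chr14:118937827-118937845): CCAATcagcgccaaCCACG
Creld2 (chr15:88819520-88819538): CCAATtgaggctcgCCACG
Syvn1 (chr19:6046532-6046550): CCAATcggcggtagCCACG

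Of the 8 measured genes with ERSE, Hsp90b1 and Pdia6 were higher in myeloma cells, and Hspa5, Calr, Canx, Dnajc3, Creld2 and Syvn1 did not pass the test. All 10 matches in the members began 44 to 212 bases before the gene start. Hsp90b1 was the gene with a pair of matches. Stretches upstream of gene starts follow, to show a promoter with a pair of ERSE, one with a single ERSE, and one with ERSE-II instead. Capitals mark ERSE in Hsp90b1 and Calr, and TGATGNAA (on the opposite strand) and ERSE-II in Herpud1.
Hsp90b1 (chr10:86705510-86705694, minus strand): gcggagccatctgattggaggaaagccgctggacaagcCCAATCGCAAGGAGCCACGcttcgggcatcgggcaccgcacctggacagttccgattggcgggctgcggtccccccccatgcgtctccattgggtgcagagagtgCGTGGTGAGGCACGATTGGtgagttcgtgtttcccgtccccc
Calr (chr8:84846935-84847181, minus strand): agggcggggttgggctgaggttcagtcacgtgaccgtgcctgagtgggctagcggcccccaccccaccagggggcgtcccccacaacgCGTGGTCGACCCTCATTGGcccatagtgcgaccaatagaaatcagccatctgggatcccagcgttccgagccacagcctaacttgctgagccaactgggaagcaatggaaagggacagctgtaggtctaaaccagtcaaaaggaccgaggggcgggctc
Herpud1 (chr8:94386179-94386428, plus strand): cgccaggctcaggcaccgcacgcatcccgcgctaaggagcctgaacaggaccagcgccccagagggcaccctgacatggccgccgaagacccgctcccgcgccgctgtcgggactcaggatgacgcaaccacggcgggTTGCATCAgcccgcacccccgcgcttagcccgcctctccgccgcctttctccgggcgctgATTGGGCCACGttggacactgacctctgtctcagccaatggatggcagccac

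Among the 4 disulfide isomerases, Pdia4 and Pdia6 were higher in myeloma cells. Pdia4 (chr6:47796141-47813512) was at 134.0, 102.7, 198.3, 109.1 and 44.7 RPKM in myeloma cells and at 2.55, 47.9, 2.08 and 28.2 in osteoprogenitors. Only the lowest myeloma library lay within the osteoprogenitor range. Pdia4 was higher in myeloma cells (log2 fold change 3.26 ± 0.82, adjusted p = 0.007958). The estimate was 2.64 without osteoprogenitor replicate I and 3.97 without replicate G. Pdia6 rose from 187.2 ± 82.7 to 441.9 ± 86.8 RPKM without overlap (1.38 ± 0.39, adjusted p = 0.01583). Without osteoprogenitor replicate D, whose 65 RPKM was the lowest, the estimate for Pdia6 was 0.93, under the fold threshold. Pdia3, the partner of the lectin chaperones, did not pass (0.76 ± 0.52). P4hb, which is also a subunit of the collagen prolyl 4-hydroxylase, was at 475.1 ± 130.1 RPKM in myeloma cells and 825.6 ± 305.3 in osteoprogenitors (-0.77 ± 0.32, adjusted p = 0.07585), short of the fold threshold. Pdia4 RPKM divided by P4hb RPKM was 0.0845 to 0.681 within bone-lining myeloma libraries and 0.00274 to 0.0952 within osteoprogenitor libraries, with overlap.

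The entry machinery comprised 4 signal peptidase genes and 7 genes of the translocon and TRAP. Of the signal peptidase genes, 3 rose. Sec11c was at 2059.0, 4212.5, 2660.0, 2537.3 and 4295.9 RPKM in myeloma cells and at 671.0, 247.9, 405.1 and 156.1 in osteoprogenitors. Every myeloma library was thus far above every osteoprogenitor library, with a 9.4-fold difference (log2 fold change 3.23 ± 0.39, adjusted p = 3.753e-05), the smallest p of all members. The non-catalytic subunits moved less. Spcs3 was at 75.4 ± 19.5 RPKM in myeloma cells and 30.1 ± 6.82 in osteoprogenitors (1.28 ± 0.37, adjusted p = 0.0163), and it did not pass in the fit of all 38 libraries (adjusted p = 0.313). Spcs2 rose only just beyond the fold threshold (1.03 ± 0.34, adjusted p = 0.03067) and fell under it, at 0.85 to 0.99, when any of osteoprogenitor replicates D, G and I or myeloma replicate J was left out. Spcs1, abundant everywhere, did not pass (0.39 ± 0.33). The alternative catalytic subunit Sec11a, not a member of the panel, was at 490.7 ± 143.1 and 278.6 ± 39.9 RPKM, short of the fold threshold (0.77 ± 0.29, adjusted p = 0.05197). Sec11c RPKM was 4.89 to 7.5 times that of Sec11a in bone-lining myeloma libraries and 0.611 to 2.01 times in osteoprogenitors.

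Of the translocon and TRAP genes, 0 of 7 rose and 1 fell. Whether they differed as a group from the signal peptidase genes was not tested. The counts were not stable, as Ssr2 passed at equal sums of RPKM (1.26) and without osteoprogenitor replicate D (1.05) or myeloma replicate I (1.00), and Ssr1 was lower without myeloma replicate G (-1.21). Ssr3 (chr3:65379657-65392553), which encodes the gamma subunit of TRAP, was at 186.9, 108.7, 231.3, 151.8 and 103.2 RPKM in myeloma cells. The 4 osteoprogenitor libraries were all above these, at 413.0, 446.1, 337.0 and 438.4. Ssr3 was lower in myeloma cells (log2 fold change -1.44 ± 0.31, adjusted p = 0.003083). The beta subunit Ssr2 was at 1244.3 ± 246.7 and 686.7 ± 199.3 RPKM and did not reach the fold threshold (0.87 ± 0.25, adjusted p = 0.01583). Within libraries, Ssr2 RPKM was 5.63 to 13.3 times that of Ssr3 in bone-lining myeloma cells and 7.2 to 10.7 times in those of the central marrow, against 1.19 to 2.36 times in osteoprogenitors of the same hosts. The pairs of genes set against each other within libraries were chosen with their fold changes known, so these ratios restate those changes and were not tested. The channel subunits Sec61a1, Sec61b and Sec61g did not pass, with log2 fold changes of -0.47, -0.02 and 0.47.

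**Figure D3:**
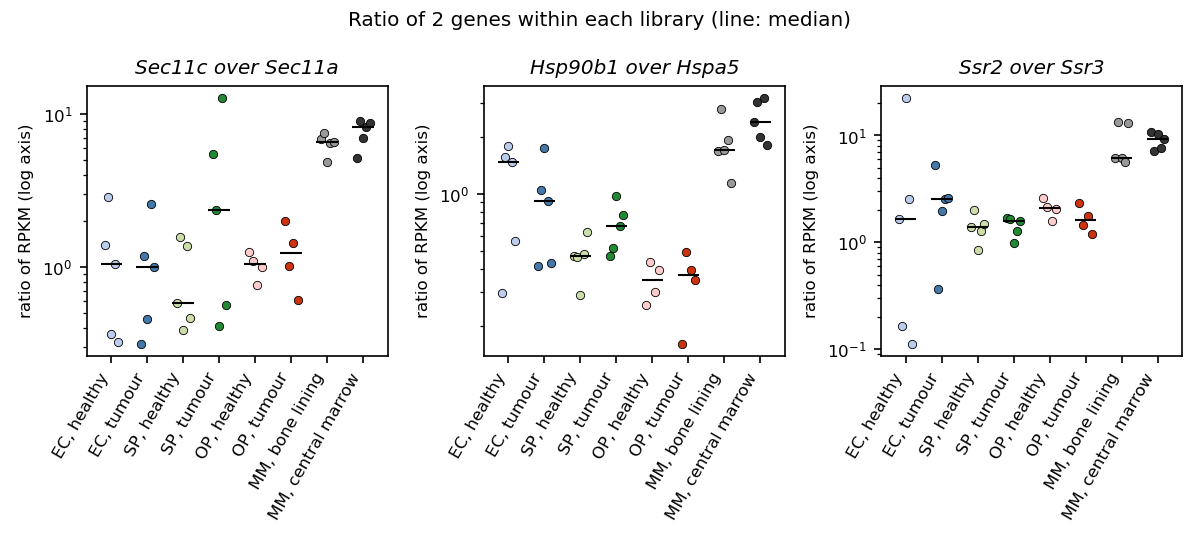
Ratios of RPKM within each library, on a log axis, for Sec11c over Sec11a, Hsp90b1 over Hspa5 and Ssr2 over Ssr3 in the 8 groups (EC, SP, OP and MM as above), with points for libraries and lines for medians. All 10 MM points lie above all 8 OP points in each of the panels, while 2 SP libraries reach the MM range for Sec11c over Sec11a (up to 12.7), EC libraries reach it for Hsp90b1 over Hspa5 (up to 1.78), and a single EC library exceeds it for Ssr2 over Ssr3 (22.3).

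Of 8 ERAD genes tested, 3 rose and none fell at this threshold. Edem1 and Edem2 encode lectin-like proteins that mark misfolded glycoproteins for disposal. Edem2 (chr2:155701673-155729475) was at 54, 16.3, 40.2, 24.1 and 14.4 RPKM in myeloma cells and at 0.086, 3.67, 0.466 and 17.1 in osteoprogenitors. Osteoprogenitor replicate J alone overlapped with the myeloma cells (8.01-fold higher, with an SE of 0.80 on the log2 scale, adjusted p = 0.01116), and without it the log2 fold change was 3.81. Edem1 was at 96 ± 40.4 and 14.1 ± 6.1 RPKM without overlap (2.70 ± 0.47, adjusted p = 0.000713). Sel1l, the adaptor of the ubiquitin ligase Syvn1, rose from 33.1 ± 15.3 to 74.3 ± 21.6 RPKM (1.23 ± 0.44, adjusted p = 0.04384). Without osteoprogenitor replicate J the Sel1l estimate was 0.90 (adjusted p = 0.142), and the fit of all 38 libraries gave an adjusted p of 0.196. Syvn1 (-0.29), Derl1 (0.89), Derl2 (0.21), Herpud1 (-0.73) and Edem3 (-1.06 ± 0.57, adjusted p = 0.1698) did not pass.

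Either group was then exchanged for its counterpart. With central marrow myeloma cells in place of bone-lining cells, 13 of 38 members were higher and 6 lower than in osteoprogenitors, against 28% and 19.6% of 9528 genes. The added lower ones were Hspa5 (-1.10, adjusted p = 0.00239), Herpud1 (-1.49) and Dnajc3 (-1.40). Among the higher ones Hyou1 was gained (1.35) and Spcs2 lost (0.84). With healthy osteoprogenitors in place of myeloma-bearing ones, 11 of 37 members were higher and 6 lower, against 24.1% and 18.5% of 9231 genes. The added lower ones were again Hspa5 (-1.12, adjusted p = 0.00202), Herpud1 (-1.52) and Dnajc3 (-1.09). In that comparison Edem2 (0.53), Spcs3 (0.59) and Spcs2 (0.93) no longer passed, and Dnajb11 did (2.06 ± 0.51, adjusted p = 0.00769). Pdia4 was at 1.83 there. Healthy osteoprogenitors had Edem2 at 15.8, 11.2, 17.5 and 32.6 RPKM, of which all but the 11.2 lay within the range of the bone-lining myeloma cells. Xbp1 differed by 2.15 and 1.90 in the exchanged comparisons.

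The comparison of the same myeloma libraries with stromal progenitors of myeloma-bearing mice, the Sca1+ precursors of the bone lining, gave 12 of 37 members higher (32.4%) and 2 lower (5.41%). Over all 9460 genes 23.5% were higher and 18.8% lower. Members had a median log2 fold change of 0.48 and all genes one of 0.35. Sec11c was at 374.2, 289.0, 185.8, 151.4 and 166.6 RPKM in stromal progenitors, all far below the myeloma cells (log2 fold change 3.78 ± 0.30, adjusted p = 5.119e-07). Pdia4 was at 16.3, 43.8, 4.94, 3.28 and 10.9, all below the lowest myeloma library, the 43.8 narrowly (3.17 ± 0.65, adjusted p = 0.001801). Edem2 was at 0.0638, 1.55, 14.7, 0.804 and 2.83, with 1 library in the myeloma range (3.13 ± 0.73, adjusted p = 0.004559). Xbp1 was at 147.5, 288.3, 149.6, 147.9 and 172.9 RPKM, again without overlap (2.15 ± 0.28, adjusted p = 4.69e-05). Unlike in the comparison with osteoprogenitors, Ssr2 passed here (1.67 ± 0.24, adjusted p = 0.0001047) while Ssr3 did not reach the fold threshold (-0.87 ± 0.33, adjusted p = 0.0581).

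Ddit3 and Dnajb9 were the lower members. Ddit3 was at 154.8, 135.5, 130.7, 181.7 and 74.6 RPKM in stromal progenitors, all above the myeloma cells (-1.73 ± 0.39, adjusted p = 0.00355). In the fit of all 38 libraries its adjusted p was 0.103. Dnajb9 was at 142.7, 144.2, 133.0, 125.8 and 176.7 RPKM (-1.39 ± 0.43, adjusted p = 0.02227), and scaled to equal sums of RPKM it was -0.73 (adjusted p = 0.155). That scaling raised the median of all genes from 0.35 to 0.86, the number of higher members from 12 to 21 and the share of higher genes among all calls from 55.5% to 69.6%. Hspa5 was at 716.4, 438.2, 277.3, 610.3 and 421.3 RPKM in stromal progenitors, overlapping with myeloma cells (-0.29 ± 0.30, adjusted p = 0.4856), and had the opposite sign, 0.39, at equal sums. Trib3 was at 0, 0.319, 0.117, 0 and 0 RPKM and was not tested. Sdf2l1, among the higher members (2.08 ± 0.90, adjusted p = 0.08938), was lost when any of stromal replicates G, I and J or myeloma replicates E, G, I and J was left out (adjusted p 0.108 to 0.178). Without stromal replicate I its estimate was 1.12. Without stromal replicate E, the library rich in neutrophil markers, 12 members were higher and 2 lower.

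Against endothelial cells of myeloma-bearing mice the members stood higher most often. Of 37 tested, 22 were higher (59.5%) and 1 lower (2.7%), against 24.4% and 17.1% of all 9207 genes. The median was 1.43 over the members and 0.49 over all genes. By role, 4 of 4 disulfide isomerases, 5 of 10 chaperones, 4 of 7 translocon and TRAP genes, 3 of 4 signal peptidase genes and 4 of 8 ERAD genes rose. Pdia4 was at 28.9, 16.7, 4.26, 0.39 and 0.0701 RPKM in endothelial cells, all below the myeloma cells (log2 fold change 4.34 ± 0.90, adjusted p = 0.002533, and 4.96 without endothelial replicate D). Sec11c was at 52.2, 250.4, 88.7, 519.7 and 265.1, also without overlap (4.11 ± 0.53, adjusted p = 5.91e-05). Atf6 was at 0.0287, 1.14, 0.757, 0.02 and 4.74 and stayed below every myeloma library (3.36 ± 0.65, adjusted p = 0.001498). Xbp1 was at 222.9, 300.9, 145.4, 217.8 and 175.6 RPKM, without overlap (1.92 ± 0.28, adjusted p = 0.0001906).

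The lower member was Ddit3, at 161.3, 211.0, 50.2, 63.5 and 68.4 RPKM in endothelial cells. Myeloma replicate J, at 66.7, overlapped with this range (-1.27 ± 0.49, adjusted p = 0.06224). The call was lost in the fit of all 38 libraries (adjusted p = 0.238) and on leaving out endothelial replicate D or E or myeloma replicate E, G or I. Hspa5 was at 241.8, 303.0, 140.9, 286.9 and 262.4 RPKM in endothelial cells and 2 of these exceeded the lowest myeloma library (0.68 ± 0.30, adjusted p = 0.1025). Trib3 was at 1.5 RPKM in 1 endothelial library and 0 in the other 4. Among the higher members, Edem2 (1.84 ± 0.81, adjusted p = 0.09906) and Spcs3 (2.24 ± 0.93, adjusted p = 0.08037) were lost on leaving out most single libraries. The Edem2 estimate was 1.12 without endothelial replicate G. That of Spcs3 was 1.61 without endothelial replicate D, 1.65 without J and 2.93 without I. The 3 comparisons of myeloma cells share their myeloma libraries and are not independent. Endothelial libraries also had the fewest genes above 1 RPKM, and the part of this in the higher count was not tested.

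In healthy mice, osteoprogenitors (n = 4) were compared with stromal progenitors (n = 5) to follow the panel within the mesenchymal lineage. None of 36 members tested was called by limma, against 3.58% of all 8707 genes. At an unadjusted p below 0.05 there were 4 members (11.1%) and 13.1% of all genes. The smallest p was that of Herpud1, an ER membrane protein that recruits ERAD components. It was at 319.5, 376.5, 367.8 and 630.0 RPKM in osteoprogenitors and at 190.5, 153.4, 152.0, 261.4 and 272.1 in stromal progenitors, without overlap (log2 fold change 1.03 ± 0.33, adjusted p = 0.1517). With voom on recovered reads and with median-ratio scaling Herpud1 passed the test, with adjusted p of 0.0905 and 0.0825. Ssr2 followed, at 501.0, 666.2, 563.0 and 942.1 RPKM against 459.1, 382.5, 266.0, 382.5 and 460.7 (0.76 ± 0.30, adjusted p = 0.2655). Scaled to equal sums, both Herpud1 (1.33, adjusted p = 0.039) and Ssr2 (1.06, adjusted p = 0.0738) passed, and the share of higher genes among all calls went from 47.1% to 62.5%, while voom gave 58.5%.

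Dnajb11 (-1.42 ± 0.61) and Sdf2l1 (-1.10 ± 0.46) were the others, and both had all osteoprogenitor libraries below all stromal libraries. For Xbp1 the healthy mesenchymal groups overlapped. It was at 137.2, 206.9, 194.4 and 342.7 RPKM in osteoprogenitors and 260.9, 264.1, 138.3, 294.1 and 292.7 in stromal progenitors (-0.21 ± 0.36, adjusted p = 0.8866). Hspa5 was at 782.4, 836.1, 919.7 and 787.2 RPKM against 554.0, 818.4, 708.9, 667.0 and 503.1 (0.37 ± 0.25, adjusted p = 0.6096). Only stromal replicate L, which also carried the neutrophil markers, reached the osteoprogenitor range. Ddit3 was at 224.7, 110.6, 76.1 and 198.4 against 39.7, 90.1, 164.9, 114.2 and 217.5, with full overlap (0.36 ± 0.51, adjusted p = 0.8524). Trib3 was at 6.49, 0, 1.54 and 0 RPKM in osteoprogenitors and had no read in the 5 stromal libraries. Without stromal replicate L, 0 members were called.

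The presence of myeloma was tested in each niche cell type. No member was called in endothelial cells (36 tested, background 0% of 7880 genes), stromal progenitors (36 tested, background 0% of 8747) or osteoprogenitors (36 tested, background 0.0115% of 8664), by limma. At an unadjusted p below 0.05 there were 1 member (2.78%), 1 member (2.78%) and 2 members (5.56%), against 5.25%, 5% and 4.87% of all genes. The median log2 fold changes of the members were 0.28, -0.34 and -0.16. The background of called genes depended on the fit. With all 38 libraries in 1 fit, 165 genes were higher and 93 lower in endothelial cells, where 1 member was called. In stromal progenitors these counts were 22 and 9, and in osteoprogenitors 7 and 9, with 0 members called in either. At the same thresholds the paper reported differentially expressed genes in each of these cell types.

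In endothelial cells the smallest p belonged to Sdf2l1, which was at 13.5, 71.6, 10, 90.6 and 25 RPKM in myeloma-bearing mice. In healthy mice it was at 0.0521, 0.0514, 0.0386, 0 and 114.1, so that replicate O alone was high. The log2 fold change was 3.53 ± 1.37 (adjusted p = 0.8737), and 1 fit of all 38 libraries gave the same fold change with an adjusted p of 0.0771. Without healthy replicate O the estimate was 4.89 (adjusted p = 0.399). Dnajb11, its partner, was at 17.4, 53.2, 13.3, 17.8 and 10.9 RPKM against 29.4, 1.65, 17.6, 0.0582 and 1.15, with overlap (1.97 ± 1.16, adjusted p = 0.9303, and 2.62 without healthy replicate C). Xbp1 was at 265.5, 450.8, 73.7, 363.8 and 363.3 RPKM in healthy endothelial cells and overlapped fully with the myeloma-bearing values above (-0.33 ± 0.54, adjusted p = 0.9855). Hspa5 was at 213.9, 171.9, 244.8, 212.7 and 417.5 in healthy mice (-0.01 ± 0.47, adjusted p = 0.9983). Ddit3 was at 100.6, 0.0653, 70.4, 230.4 and 246.2 (0.83 ± 1.14, adjusted p = 0.9855), its low value coming from replicate L, the library with 4501 genes above 1 RPKM, without which the estimate was -0.58. Trib3 was at 3.13, 0, 0, 27.7 and 0 in healthy endothelial cells and was not tested.

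In stromal progenitors Sdf2l1 again had the smallest p, with the opposite sign. It was at 57.8, 44.7, 21.1, 0.181 and 19.2 RPKM in myeloma-bearing mice and at 47.3, 118.4, 48.1, 61.1 and 127.0 in healthy mice. The ranges overlapped in the highest myeloma-bearing library (-2.13 ± 0.87, adjusted p = 0.9151). Without replicate I, at 0.181, the estimate was -1.16. Pdia6 came next, at 16, 173.6, 166.1, 150.4 and 96.4 RPKM against 210.2, 198.5, 175.9, 291.9 and 191.9, without overlap (-1.17 ± 0.56, adjusted p = 0.9556). Without the library at 16, replicate D, the Pdia6 estimate was -0.55. Xbp1 (-0.46 ± 0.37, adjusted p = 0.9762), Hspa5 (-0.45 ± 0.32, adjusted p = 0.9706) and Ddit3 (0.26 ± 0.48, adjusted p = 0.9958) overlapped between hosts in the values given above. Trib3 was not tested. Leaving out healthy replicate L or myeloma-bearing replicate E, the libraries with neutrophil markers, left 0 members called.

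In osteoprogenitors the smallest p was that of Edem2, whose values in both hosts are given above (log2 fold change -2.47 ± 1.01, adjusted p = 0.9809, and -3.28 without myeloma-bearing replicate J). The next was Dnajb11, at 30.8, 53.5, 68.8 and 44.5 RPKM in myeloma-bearing mice and 4.23, 20.3, 24.3 and 27.6 in healthy mice, without overlap (1.52 ± 0.66, adjusted p = 0.9809). All 4 healthy libraries of Hspa5 exceeded all 4 myeloma-bearing ones (-0.45 ± 0.28, adjusted p = 0.9809). Xbp1 (-0.28 ± 0.39, adjusted p = 0.9983) and Ddit3 (-0.20 ± 0.49, adjusted p = 0.9983) overlapped. Trib3 had reads in 2 healthy libraries and in none of the myeloma-bearing ones.

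Because Sdf2l1 had opposite signs in endothelial and stromal cells, the difference of its responses was tested after these values were seen. The response in endothelial cells minus that in stromal progenitors was 5.66 ± 1.67 on the log2 scale (adjusted p = 0.9095, limma interaction over 10596 genes). The response in endothelial cells minus that in osteoprogenitors was 5.38 ± 1.86 (adjusted p = 0.998). No member passed at an adjusted p below 0.1 for any pair of cell types. With each library left out in turn, the endothelial minus stromal difference of Sdf2l1 was 4.70 to 7.02, with adjusted p of 0.2257 to 0.9868 (limma).

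To ask whether location mattered, bone-lining myeloma cells were compared with central marrow myeloma cells, 5 libraries each. All 39 members were tested and none was called by limma, against 0.203% of 8857 genes. At an unadjusted p below 0.05 there were 3 members (7.69%), against 5.98% of all genes. Syvn1, the ERAD ubiquitin ligase HRD1, was at 27.2, 17.4, 7.38, 20.6 and 9.03 RPKM on the bone lining and 102.6, 24.1, 27.8, 18.7 and 29.1 in the marrow. The ranges overlapped and 1 marrow library was high (log2 fold change -1.11 ± 0.45, adjusted p = 0.7814). Herpud1 was at 124.9, 69.3, 196.4, 116.3 and 285.6 RPKM against 140.8, 72.4, 84, 52.9 and 89.5, with overlap (0.75 ± 0.34, adjusted p = 0.8316). Derl1 was the other of these 3 (0.49 ± 0.23, adjusted p = 0.8316).

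Xbp1 in central marrow cells was at 729.2, 730.4, 746.4, 785.8 and 828.1 RPKM, inside the wider bone-lining range (0.03 ± 0.18, adjusted p = 0.998). Hspa5 was at 254.9, 253.6, 364.1, 211.8 and 363.7, with 3 libraries below all bone-lining values and the other 2 among them (0.43 ± 0.22, adjusted p = 0.8403). Ddit3 was at 36.2, 25.5, 30.6, 18.2 and 25 (0.52 ± 0.29, adjusted p = 0.8571). Trib3 was at 1.02, 4.04, 0.612, 0 and 2.95 RPKM and passed the expression filter in this comparison (-0.57 ± 0.51, adjusted p = 0.949). Among all members the log2 fold changes ran from -1.11 to 0.75.

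Other genes of the secretory pathway were described in lists beside the panel, again for bone-lining myeloma cells against myeloma-bearing osteoprogenitors, where 24.5% of all genes were higher and 18.4% lower. Collagen cargo, 12 genes, was lower in 12 of 12, with Sparc at a log2 fold change of -11.26 and Col1a1 at -11.23. Of 21 genes for collagen biosynthesis in the ER, 15 fell and 0 rose, led by Rcn3 (-8.11) and Pcolce (-7.85). The ER exit and Golgi retrieval list, which carries cargo out of the ER and returns escaped residents, had 11 of 27 lower and 1 higher. Its largest fall was in Tmed3 (-7.29) and its rise in Lman2 (1.26). The plasma cell list had 8 of 11 higher, including Igj, the joining chain of polymeric antibody (11.30), and Pou2af1 (6.11), and 1 lower, Fkbp11 (-3.03), an ER prolyl isomerase.

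The lists nearest to the panel had calls in both directions, and no list was tested against all genes. Of 22 further chaperones and oxidative folding genes 8 rose and 2 fell, led by Mzb1 (6.01), a B-lineage cofactor of GRP94, and Erp29 (2.65), with Fkbp11 and Tmx1 (-1.48) lower. Of 27 translocation and N-glycosylation genes 3 rose and 3 fell, with Tram2 at 3.25 and Ddost at 1.14 against Tusc3 at -6.12 and Tram1 at -1.41. Of 20 further ERAD genes 2 rose, Ube2j1 (2.75) and Rnf5 (1.92), and 2 fell, Selk (-1.84) and Herpud2 (-1.62). Of 14 further sensors and regulators 2 rose, Eif2ak3, which encodes PERK (1.82 ± 0.56), and Tmbim6 (1.79). Creb3l1, a factor for collagen secretion (-4.94), Ppp1r15a (-2.46) and Atf4 fell. Of 17 targets of the integrated stress response, 5 rose and 6 fell. Asns (6.37) and Psat1 (4.11), enzymes of amino acid synthesis, were the largest rises, and Atf3 (-7.89) and Vldlr (-4.01) the largest falls. Cytosolic and mitochondrial heat shock genes had 2 of 15 higher, the mitochondrial Hspe1 (2.15) and Hspd1 (2.07), and 6 lower, led by Cryab (-7.94) and Hspa1a (-5.36). Between bone-lining and central marrow myeloma cells 0 genes of any of these lists were called, against 0.203% of all genes.

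**Figure D4:**
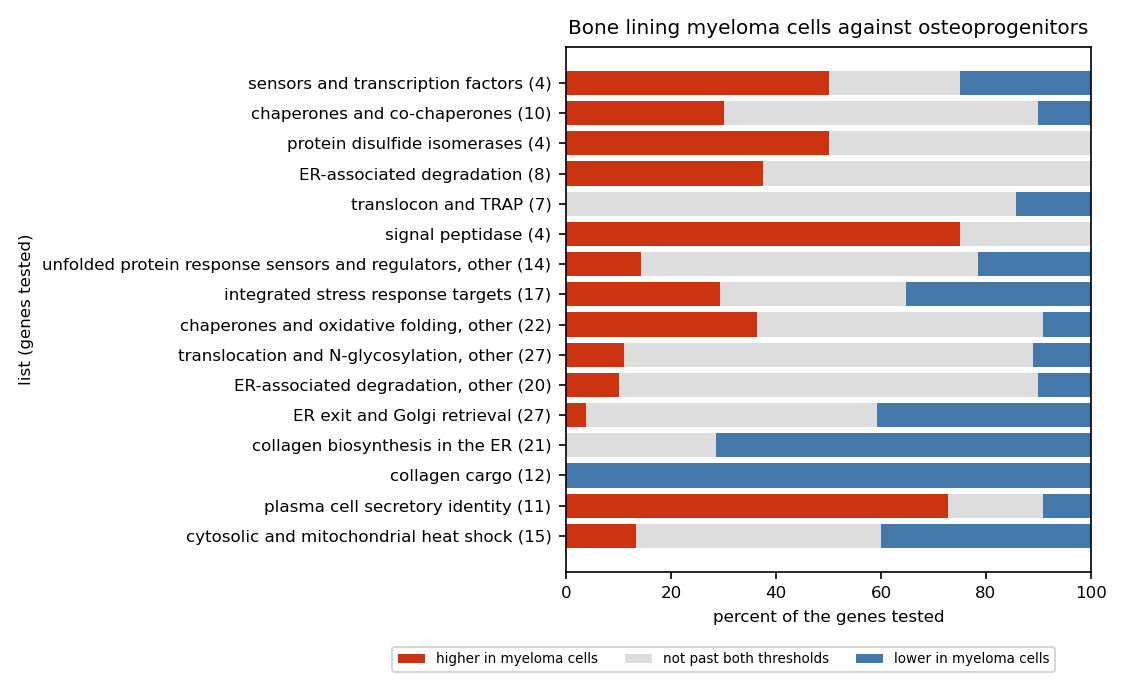
Share of the tested genes, in percent, that were higher, lower or not called in bone-lining myeloma cells against osteoprogenitors of myeloma-bearing mice, for the 6 roles of the panel and 10 lists of other genes. Bars add up to 100%. Collagen cargo is lower throughout, signal peptidase is higher in 3 of 4 genes, and translocon and TRAP genes are mostly not called.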

How the data were processed

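The authors aligned reads to GRCm38 (mm10) with STAR 2.4.0, counted them per gene with featureCounts of Subread 1.4.5-p1, removed genes with low counts and computed RPKM with edgeR. The deposited table holds these RPKM, so a count model was not the main test.

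Values were compared as log2(RPKM + 1) with limma 3.58.1 in R 4.3.3 (empirical Bayes with trend), using the compared groups only, after removal of genes that exceeded 1 RPKM in fewer than 4 of those libraries. Fold changes are on this scale, which understates changes of low genes. Benjamini-Hochberg adjustment ran over all genes tested, and genes were called at an adjusted p below 0.1 and a log2 fold change beyond 1. Reads were recovered from the steps of the RPKM values for all 13260 genes, with whole numbers within 0.01 read, which gave the depths and a voom-limma alternative. No libraries were duplicates (smallest chi-square per gene 99.4). Counting used no strand, so reads of overlapping genes cannot be told apart.

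The members and lists were chosen with earlier results of these data known. Named genes were, against osteoprogenitors, up to 5 called members with the largest rise and 5 with the largest fall, and Xbp1, Hspa5, Ddit3 and Trib3 in every comparison. In the other comparisons they were up to 3 called members in each direction or, with none called, the 2 with the smallest p. Others were named afterwards by their role. Alternatives were other pseudocounts, filters, scalings, thresholds, fits and libraries left out. The scripts were tested on simulated data.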

Additional observations from a re-analysis of the deposited data

Results flagged for a closer look

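Values of 11 members were examined in each of the 8 groups for a library standing far from the others, by the gap to its nearest neighbour as a share of the group's range on the log2(RPKM + 1) scale, against the 95% critical value of Dixon's test. Of 88 groups of values 10 passed, and chance alone passes about 1 in 20. Xbp1 was low in healthy stromal replicate M (138.3 RPKM, share of the range 0.841) and high in myeloma-bearing stromal replicate E (288.3, 0.764). Atf6 was high in osteoprogenitor replicate J of the myeloma-bearing hosts (8.41, 0.887). Ddit3 was low in healthy endothelial replicate L (0.0653, 0.772) and high in bone-lining myeloma replicate J (66.7, 0.764). Sdf2l1 was high in healthy endothelial replicate O (114.1, 0.989) and low in myeloma-bearing stromal replicate I (0.181, 0.727). Sec11c was low in central marrow myeloma replicate D (2218.1, 0.748), and Ssr3 in healthy stromal replicate L (192.3, 0.797). Trib3 had reads in endothelial replicate J alone among those of myeloma-bearing mice (1.5, 1.000).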

How the results depend on the processing

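Against osteoprogenitors, 10 of the 16 calls held under every alternative and every left-out library, against stromal progenitors 10 of 14 and against endothelial cells 15 of 23. The lower count against osteoprogenitors went from 3 to 5 with no fold threshold and to 6 with either group exchanged. Against stromal progenitors 21 members were higher and 1 lower at equal sums of RPKM, and 1 was lower in the fit of all 38 libraries. Hspa5 reversed to 0.39 at equal sums there. Values of genes that were not called also reversed. At equal sums Xbp1 went to 0.09 between the healthy mesenchymal groups and to -0.06 between the myeloma locations, where median-ratio scaling gave -0.02. Hspa5 went to 0.18 and 0.02 under these scalings in the response of endothelial cells. With single libraries left out, the endothelial response of Hspa5 was -0.13 to 0.19 and of Ddit3 -0.58 to 1.38. Ddit3 was -0.09 to 0.51 in stromal progenitors and -0.49 to 0.09 in osteoprogenitors, and Xbp1 -0.08 to 0.13 between the myeloma locations. Against endothelial cells the lower count of 1 became 0 with all 38 libraries, with voom and at an adjusted p below 0.05, and was 0 to 1 with single libraries left out. Between healthy osteoprogenitors and stromal progenitors 1 of 36 members was called with median-ratio scaling, where 176 of 8491 genes were higher and 157 lower. At equal sums 2 of 36 were called, where 203 of 8620 genes were higher and 122 lower. With voom 1 of 36 was called, where 145 of 8707 genes were higher and 103 lower. In endothelial cells 1 of 36 members, Sdf2l1, was called between hosts in the fit of all 38 libraries. Over all 7880 genes that fit called 165 higher and 93 lower. Apart from the choice of scaling or samples itself, the cause was not tested. Whether same-lettered libraries share an animal was not settled, and they were treated as unpaired. In deviations from group means, only the letter G correlated above 0.1, between myeloma cells and osteoprogenitors (0.117), stromal progenitors (0.110) and endothelial cells (0.145). Other same-lettered pairs were below 0.1, and the unlike letters D and I reached 0.117 between myeloma cells and stromal progenitors. With a replicate block against osteoprogenitors 13 members were higher and 3 lower, and against endothelial cells 21 and 1, Edem2 being lost (adjusted p = 0.138). No paired analysis was possible for the 3 comparisons of myeloma-bearing with healthy hosts because they share no letter. Trib3, Ern1 and Hyou1 were near 0 in many libraries and could not be tested in every comparison.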
